A study of Rattus norvegicus with 32 samples.

Results

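The Wnt signalling genes described here are 53 of the 17327 genes counted in the uterus of year-old rats given bisphenol A (BPA) or ethinyl estradiol (EE2). They were chosen by gene name alone: every counted gene whose rat symbol belongs to the Wnt ligands, the Frizzled receptors, the coreceptors Lrp5 and Lrp6, the secreted Sfrp and Dkk antagonists with Wif1 and Notum, the R-spondins and their receptors Lgr4 and Lgr5, the inhibitors Nkd1, Nkd2, Axin1, Axin2 and Rnf43, or the nuclear factors Lef1, Tcf7l1 and Tcf7l2. The rule uses symbols and no measured value, but it was set with earlier results of these data known. The members comprise 18 ligands, 12 receptors and coreceptors, 10 secreted antagonists, 5 R-spondins and Lgr receptors, 5 inhibitors that act in the cell or at its membrane, and 3 nuclear factors. A further 5 symbols of the same families (Lgr6, Rspo4, Tcf7, Wnt2 and Znrf3) are not analysed here.

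All 8 groups were Sprague-Dawley rats of the NCTR colony dosed by oral gavage, the dams from gestation day 6 and the pups from postnatal day 1 until the end of the experiment (PND365). EE2, an orally active estrogen, was given at 0.05 or 0.5 µg/kg body weight/day. BPA, an industrial chemical that binds estrogen receptors weakly, was given at 2.5, 25, 250, 2500 or 25000 µg/kg/day. Control animals received the vehicle, 0.3% carboxymethylcellulose. Each group has 4 RNA-seq libraries of whole uterus. The labels name no animal, litter or stage of the estrous cycle, so a p-value here measures only the spread between libraries, and the 7 comparisons with control share the same 4 control libraries.

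Wnt proteins are lipid-modified secreted ligands that bind a Frizzled receptor together with Lrp5 or Lrp6. In the β-catenin branch this disables the destruction complex built on Axin, and β-catenin then works with TCF/LEF factors in the nucleus; other ligands, Wnt5a among them, mostly act through branches that do not use β-catenin. In the mouse, Wnt ligands from epithelium and stroma are needed for the uterus to form its glands and to be patterned along its length, and estrogen changes the levels of several of them.

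Library totals ran between 11777809 and 24661856 counts, and a floor of 3 counts corresponds to 0.255 CPM, the unit used here for a gene's count relative to its library's scaled total, in the smallest library. Of the 53 genes, 44 passed the filter on low counts and were tested. The other 9 (Rspo2, Wnt1, Wnt10a, Wnt10b, Wnt3, Wnt3a, Wnt8a, Wnt8b and Fzd9) reached at most 0.764 CPM in any library. Levels below are CPM on scaled library sizes and are compared between libraries, never between genes. Markers of uterine epithelium and smooth muscle were present throughout, with group means of 267 to 386 CPM for the epithelial keratin Krt8. In 4 libraries (BPA 2.5 libraries 1 and 3, BPA 250 library 1 and BPA 25000 library 3) the median correlation with the other libraries was lowest, at 0.892 to 0.926. A fit without these 4 libraries keeps only libraries 2 and 4 of BPA 2.5, so its adjusted p there also rests on fewer libraries. The 12 counted genes of ciliated cells summed to 953 and 655 CPM in BPA 2.5 libraries 1 and 3, against 68.1 and 37.4 CPM in libraries 2 and 4 of that group and 33.2 to 45.1 CPM in control. In bulk RNA, fewer cells of a type and less RNA per cell cannot be told apart.

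Wnt genes passed the test most often at 250 µg BPA in the fit of all libraries, an order that turned without 4 of them. At BPA 250, 9 of the 44 tested genes (20.5%) had an adjusted p under 0.05 in edgeR's quasi-likelihood test, against 8.79% of all 13312 genes tested; 5 were higher than control (4.44% of all genes) and 4 lower (4.35%). At BPA 2.5 the share was 5 of 44 (11.4%), all higher, and over all genes it was likewise 11.4%, with 7.06% higher. At BPA 25, 1 gene passed, upward (2.27%, against 1.92% of all genes and 0.954% upward), and at BPA 25000 2 passed (4.55%, against 2.32%), 1 higher (1.36% of all genes) and 1 lower (0.962%). At EE2 0.5, 1 gene passed, upward (2.27%, against 0.556% and 0.263% upward). Outside BPA 250 the members' shares rest on at most 5 genes each. Without control library 4 the count at BPA 250 was 0. Without the 4 libraries of lowest correlation it was 4, with 7 at BPA 25 and 7 at BPA 25000. The counts over all genes moved as well. With 1 library left out they ran from 179 to 1594 at BPA 250, 0 to 523 at BPA 25 and 2 to 502 at BPA 25000. The share of all genes called without the 4 libraries is not given here, so the turned order cannot be called particular to Wnt genes.

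No Wnt gene passed at EE2 0.05 or at BPA 2500, where 0.0451% and 0% of all genes passed. The members with an unadjusted p under 0.05 were 6 at EE2 0.05 (13.6%, against 11.5% of all genes) and 5 at BPA 2500 (11.4%, against 10.2%). DESeq2 also passed 0 members in each. None passed in the mean of the 2 EE2 doses, in the mean of the 5 BPA doses, or between EE2 0.5 and EE2 0.05. Of all genes, 0.0676%, 1.34% and 0.015% passed there, in that order. DESeq2 passed 3, 4 and 0 members. At an unadjusted p under 0.05 the members were 9 (20.5%, against 15% of all genes), 13 (29.5%, against 18.7%) and 6 (13.6%, against 9.01%). The median log2 fold change of the 44 genes was 0.05 at EE2 0.05, 0.23 at EE2 0.5, 0.25 at BPA 2.5, 0.17 at BPA 25, -0.09 at BPA 250, 0.04 at BPA 2500 and 0.10 at BPA 25000. Over all tested genes it stayed between -0.02 and 0.05.

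**Figure D1:**
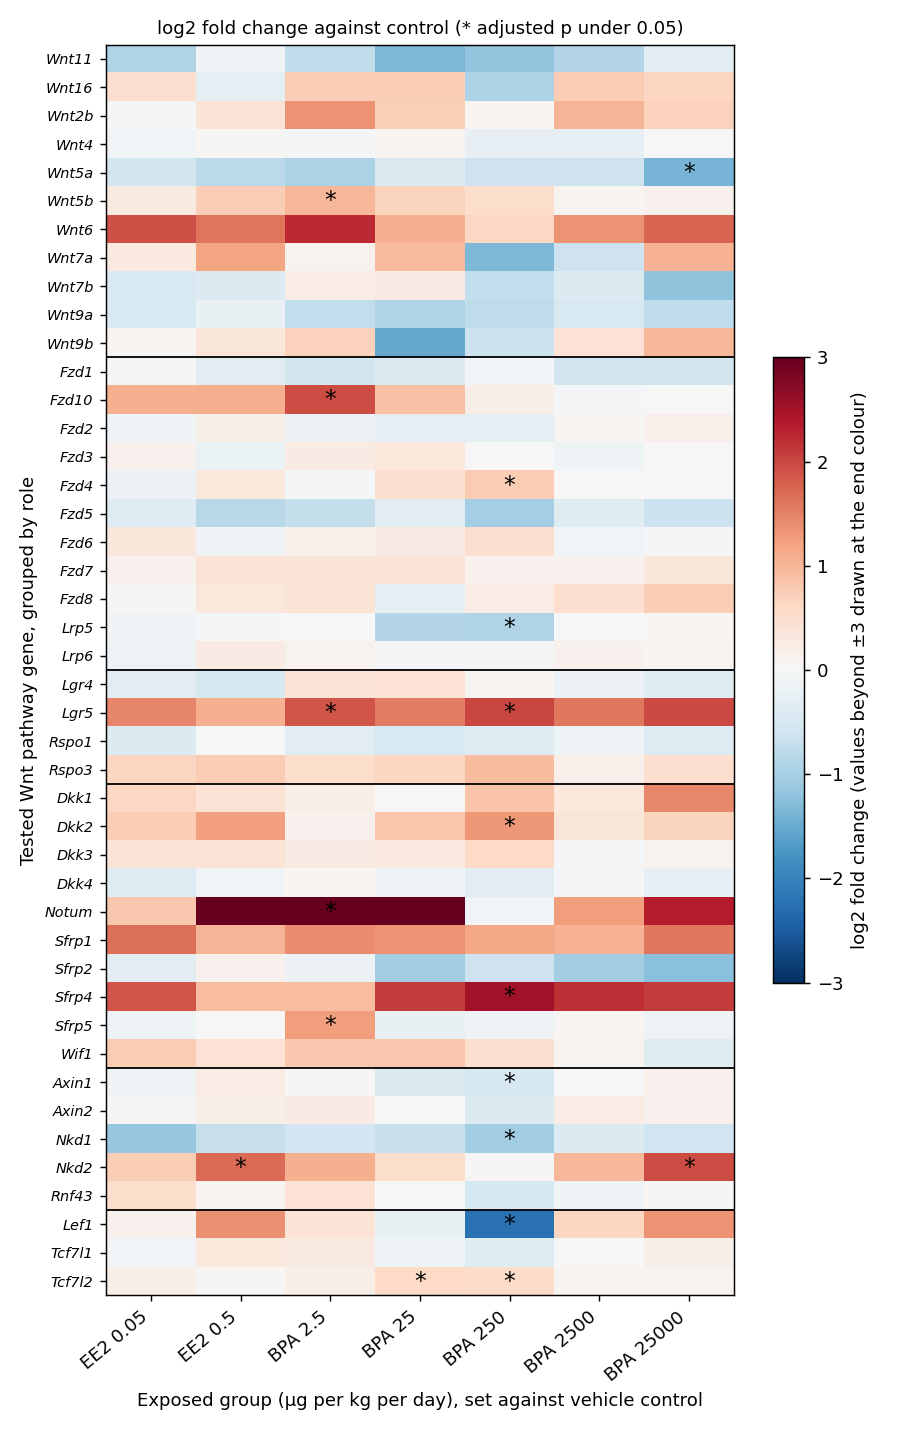
Log2 fold change of the 44 tested Wnt genes (rows, by role) in each of 7 exposed groups against control (columns), in colour, with an asterisk where the adjusted p was under 0.05. The BPA 250 column holds 9 asterisks, of both colours, and the columns of EE2 0.05 and BPA 2500 hold none.

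Among the ligands, Wnt5a fell at the highest BPA dose and Wnt5b rose at the lowest. Wnt5a (NCBI gene 64566), made by the uterine mesenchyme and needed for gland formation in the mouse, had 213, 117, 137 and 138 CPM in the 4 BPA 25000 libraries, against 348, 376, 452 and 419 CPM in control. Every BPA 25000 library lay below every control library. edgeR gave a log2 fold change of -1.40 (SE 0.36, adjusted p = 0.0367 by edgeR). The group mean of Wnt5a was also below the 399 CPM of control in every other exposed group, namely 273 CPM (EE2 0.05), 228 (EE2 0.5), 207 (BPA 2.5), 296 (BPA 25), 261 (BPA 250) and 259 (BPA 2500), none of which passed. The call at BPA 25000 was lost on leaving out any of control libraries 2, 3, 4 and BPA 25000 libraries 2, 3, 4 (adjusted p between 0.0568 and 0.141).

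Wnt5b (282582), a close relative of Wnt5a, had 36.2, 25.2, 35.6 and 23.96 CPM in the BPA 2.5 libraries, against 22.7, 11.3, 11.6 and 15.4 CPM in control. The groups did not overlap, and BPA 2.5 libraries 1 and 3 were the highest. This came to a log2 fold change of 0.99 (SE 0.27, adjusted p = 0.0163). Without the 4 libraries named above it was 0.70 (adjusted p = 0.248); in a fit of the 2 groups alone the adjusted p was 0.0936, and it lay between 0.0520 and 0.0721 on leaving out any of control libraries 2, 3 and BPA 2.5 libraries 1, 3. In the table of RefSeq genes, Wnt5b overlaps Fbxl14, an F-box gene whose log2 fold change at BPA 2.5 was 0.17 (adjusted p = 0.511); the use of strand in counting is not given in the sources used here.

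The remaining 9 tested ligands (Wnt11, Wnt16, Wnt2b, Wnt4, Wnt6, Wnt7a, Wnt7b, Wnt9a and Wnt9b) passed in no comparison. They include Wnt4 and Wnt7a, which the mouse uterus needs for decidualization and for its glands. Their group means lay between 0.196 and 29.8 CPM, their log2 fold changes against control between -1.55 and 2.23, and their lowest adjusted p in any comparison was 0.0593.

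Receptors and coreceptors moved in both directions. Fzd10 (363913) and Fzd4 (64558) encode Frizzled receptors; Fzd4 is known for pairing with Lrp5 in vessels. At BPA 250, Fzd4 had 138, 68.6, 90.8 and 99.9 CPM, against 47.9, 74.5, 50.1 and 62.7 CPM in control. All BPA 250 libraries but library 2 were above every control library. Against control its log2 fold change was 0.76 (SE 0.21, adjusted p = 0.0290). The adjusted p was 0.0889 without the 4 libraries, 0.0614 in a fit of the 2 groups alone, and 0.0628 to 0.118 on leaving out any of control libraries 1, 3, 4 and BPA 250 libraries 1, 4.

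Lrp5 (293649), the coreceptor that carries the Wnt signal to Axin, fell in the same group. It had 66.0, 61.7, 47.8 and 48.0 CPM at BPA 250, against 120.5, 55.5, 131 and 109 CPM in control. Control library 2 lay among the BPA 250 libraries and the other 3 control libraries lay above them. The log2 fold change was -0.90 (SE 0.24, adjusted p = 0.0259), and -0.97 (adjusted p = 0.0402) without the 4 libraries. At BPA 25, Lrp5 had 43.5, 71.8, 40.9 and 70.2 CPM, a log2 fold change of -0.88 that did not pass (adjusted p = 0.0507); in the 3 other BPA groups and the 2 EE2 groups it averaged 96.1 to 109 CPM, with 104 CPM in control. The call at BPA 250 was lost on leaving out any of control libraries 1, 3, 4 and BPA 250 libraries 1, 3, 4 (adjusted p between 0.0602 and 0.0795). Control library 2, the lowest of its group in Lrp5, was also the lowest in the summed genes of luminal and glandular epithelium (1241 CPM), and BPA 25 libraries 1 and 3, the lowest in Lrp5, had sums of 715 and 1623 CPM, against 2428 and 2554 CPM in BPA 25 libraries 2 and 4. BPA 250 library 2 had the highest epithelial sum of its group, 2846 CPM, at 61.7 CPM of Lrp5. The part of epithelium in the Lrp5 values was not tested. The other coreceptor, Lrp6, averaged 131 to 172 CPM over the 8 groups and passed in no comparison.

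Fzd10 rose at BPA 2.5, where its values split the group. It had 121, 19.6, 71.0 and 12.4 CPM in the BPA 2.5 libraries, against 30.2, 7.55, 8.62 and 11.8 CPM in control. Libraries 1 and 3, the pair with the high ciliated cell genes, were high, and libraries 2 and 4 lay within the control range. Its log2 fold change against control was 1.95 (SE 0.62, adjusted p = 0.0393). It was 0.14 (adjusted p = 0.939) without the 4 libraries; the adjusted p was 0.169 in a fit of the 2 groups alone and 0.0950 to 0.241 on leaving out any of control libraries 2, 3, 4 and BPA 2.5 libraries 1, 3.

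**Figure D2:**
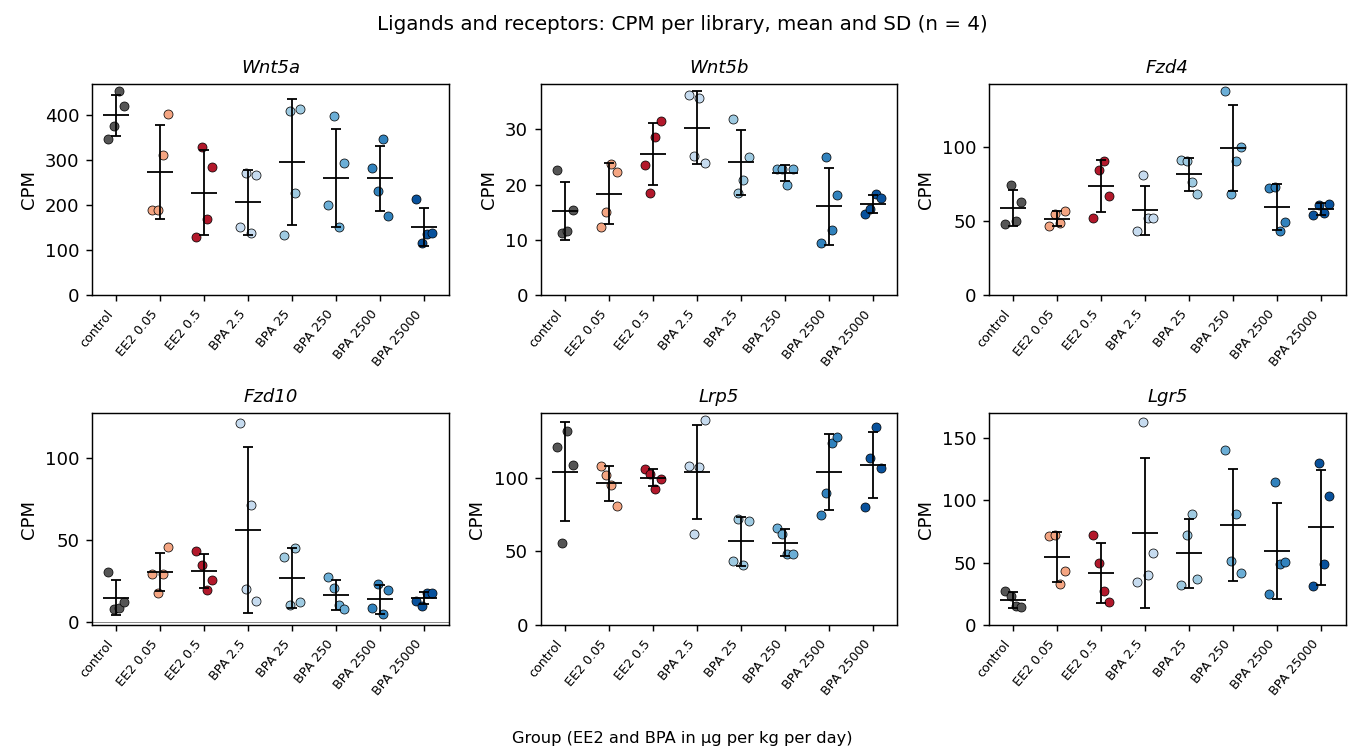
CPM of Wnt5a, Wnt5b, Fzd4, Fzd10, Lrp5 and Lgr5 in each library (points) with the mean and SD of each group (4 libraries). Wnt5a at BPA 25000 lies below all control points, Lrp5 is low at BPA 25 and BPA 250, and 2 of the 4 Fzd10 points at BPA 2.5 stand far above the rest.

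Fzd6, a receptor linked to planar cell polarity, and Fzd8 passed only the tests for any difference among groups. Fzd6 had 137, 130.4, 86.5 and 114 CPM at BPA 250, against 94.9, 64.5, 98.6 and 78.4 CPM in control, a log2 fold change of 0.47 (adjusted p = 0.0601). Fzd8 group means ran between 16.5 CPM at BPA 25 and 33.3 CPM at BPA 25000, with 20.1 CPM in control. Fzd1 averaged 140.0 to 203 CPM over the exposed groups and 207 CPM in control, and did not pass in any comparison. The other 4 tested receptors (Fzd2, Fzd3, Fzd5 and Fzd7) passed in none, with group means between 1.28 and 35.0 CPM and a lowest adjusted p of 0.101.

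R-spondins are secreted proteins that strengthen Wnt signalling by binding Lgr receptors; Lgr5 marks Wnt-dependent stem cells in the intestine and is found in uterine epithelium and glands of the mouse. Lgr5 (299802) was above control in the mean of every exposed group, and the difference passed at BPA 2.5 and BPA 250. At BPA 2.5 it had 34.1, 163, 39.8 and 57.7 CPM and at BPA 250 140.5, 50.9, 88.9 and 41.5 CPM, against 26.99, 23.5, 15.3 and 14.1 CPM in control. All libraries of both BPA groups lay above all control libraries, and both BPA groups were spread widely. In the edgeR fit the log2 fold change was 1.88 (SE 0.55, adjusted p = 0.0261) at BPA 2.5 and 2.01 (SE 0.55, adjusted p = 0.0265) at BPA 250.

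In the other exposed groups Lgr5 averaged 54.7 CPM (EE2 0.05), 41.9 (EE2 0.5), 57.5 (BPA 25), 59.6 (BPA 2500) and 78.5 (BPA 25000), against 19.97 ± 6.29 CPM in control (SD, n = 4). None of those passed, nor did the mean of the 5 BPA doses (log2 fold change 1.80, adjusted p = 0.0504). Because all these comparisons use the same 4 control libraries, they do not stand as separate evidence. The BPA 2.5 call was lost on leaving out any of control libraries 2, 3, 4 and BPA 2.5 library 2 (adjusted p between 0.0509 and 0.146) and in a fit of the 2 groups alone (0.0861), while without the 4 libraries it was 2.47 (adjusted p = 0.0190). The BPA 250 call was lost on leaving out any of control libraries 2, 3, 4 and BPA 250 library 1 (0.0519 to 0.104) and without the 4 libraries (1.60, adjusted p = 0.0669). Lgr5 overlaps another protein-coding gene in the RefSeq table, and their reads may not be separable.

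Lgr4, the other counted receptor of R-spondins, was higher at low than at high BPA doses. Its group means were 199 CPM at BPA 2.5, 201 at BPA 25, 157 at BPA 250, 132 at BPA 2500 and 115 at BPA 25000, with 149 CPM in control. The spread was wide at low dose, with 309, 172, 192 and 123 CPM at BPA 2.5, against 128, 128, 86.8 and 118 CPM at BPA 25000. Rspo3, a secreted R-spondin, averaged 50.2 to 88.0 CPM in the exposed groups and 45.2 CPM in control, and did not pass. Rspo1 had group means of 40.1 to 55.1 CPM and a lowest adjusted p of 0.258.

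The secreted antagonists, which bind Wnt ligands (Sfrp), block the coreceptors (Dkk) or remove the lipid from Wnt (Notum), gave 4 pairwise calls, all upward. These were 2 of 10 genes at BPA 2.5 and 2 of 10 at BPA 250, where 7.06% and 4.44% of all genes were called higher. All 5 Wnt genes called at BPA 2.5, of any role, were higher. The antagonists' log2 fold changes were positive for 9 of 10 genes at EE2 0.5 and at BPA 2.5, where 30 and 32 of all 44 Wnt genes were positive, and for 6 or 7 of 10 in each of the other 5 exposed groups. Sfrp5 (309377), a soluble Frizzled-related protein, was high in the BPA 2.5 group, with 29.97, 16.01, 25.5 and 12.7 CPM, against 10.3, 8.66, 6.74 and 9.40 CPM in control. The groups did not overlap. The group means of Sfrp5 in the other 6 exposed groups were 7.45 to 9.11 CPM, and the control mean was 8.77 CPM. The log2 fold change at BPA 2.5 was 1.26 (SE 0.28, adjusted p = 0.0056). It stayed past the threshold without each of the 8 libraries of these groups, but was 0.72 (adjusted p = 0.212) without the 4 libraries, and the adjusted p was 0.0743 in a fit of the 2 groups alone.

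Notum (303743), a carboxylesterase that inactivates Wnt and a target of the pathway itself, rose at BPA 2.5, with control near the floor. It had 9.25, 0.077, 7.46 and 0.319 CPM in the BPA 2.5 libraries (264 counts in all), against 0.431, 0.222, 0 and 0.0696 CPM in control (9 counts). Libraries 1 and 3 were high and libraries 2 and 4 lay within the control range. The fitted log2 difference from control was 4.56 (SE 1.48, adjusted p = 0.0435), and 0.22 (adjusted p = 0.965) without the 4 libraries. The call was also lost without any of the control libraries or without BPA 2.5 library 1 or 3 (adjusted p between 0.0542 and 0.137). At EE2 0.5, Notum had 3.81, 0.443, 2.03 and 0.860 CPM, all above control, and did not pass (log2 fold change 3.30, adjusted p = 0.266).

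Genes of ciliated cells, which line parts of the reproductive tract, were high together with Notum, Fzd10 and Sfrp5 in these libraries. Of the 12 tested genes of that list, 11 rose at BPA 2.5, where 7.06% of all genes were called higher. The cilia regulator Foxj1 averaged 42.6 CPM at BPA 2.5, against 0.250 CPM in control, and Ccno, which drives formation of multiple cilia, was at 0 in control. The summed ciliated cell genes reached 80.1 to 170 CPM at BPA 25, 51.5 to 95.5 at BPA 250, 31.1 to 269.7 at BPA 2500 and 36.8 to 63.8 at BPA 25000, 43.8 to 56.7 at EE2 0.05 and 28.9 to 54.1 at EE2 0.5. Outside BPA 2.5, 1 gene, Ccdc39, made up much of this sum. Ccdc39 averaged 33.3 CPM in control, 76.2 CPM at BPA 25 and 64.0 CPM at BPA 250. At BPA 250, Foxj1 averaged 1.21 CPM and the ciliated cell gene Tekt1 0.945 CPM, against 0.250 and 1.38 CPM in control. Summed genes of some other cell types also set BPA 2.5 libraries 1 and 3 apart from libraries 2 and 4. Stroma genes summed to 8228 and 9690 CPM in libraries 1 and 3, against 21640 and 18190 CPM in libraries 2 and 4; smooth muscle genes were 14478 and 16405 CPM, against 27558 and 35262 CPM; and nerve and glia genes were 119 and 130 CPM, against 43.6 and 38.7 CPM. Of 9 tested squamous epithelium genes, 4 rose at BPA 2.5, again beside 7.06% of all genes. The summed squamous genes, 56.7 to 71.3 CPM, did not split the group. The part of any of these cells in the Wnt gene values was not tested.

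**Figure D3:**
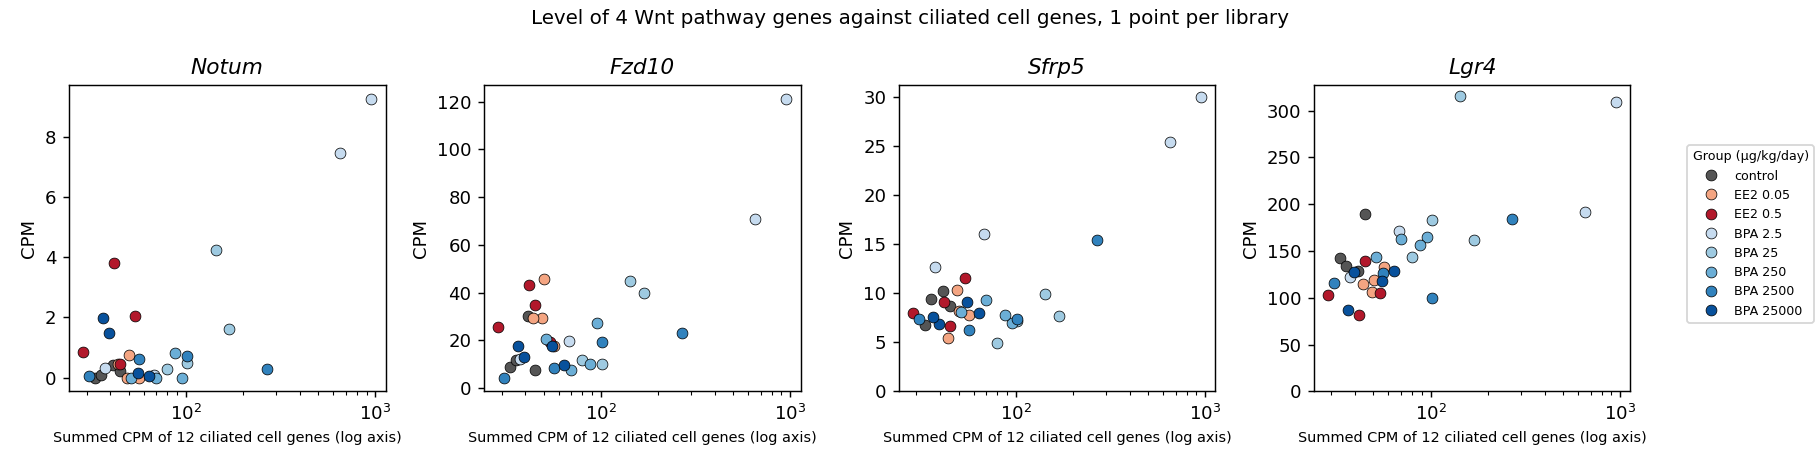
CPM of Notum, Fzd10, Sfrp5 and Lgr4 (vertical) against the summed CPM of 12 ciliated cell genes (horizontal, log scale) in each of the 32 libraries, coloured by group. BPA 2.5 libraries 1 and 3, with 953 and 655 CPM on the horizontal axis, hold the highest Notum, Fzd10 and Sfrp5 values. Outside BPA 2.5, Ccdc39 alone made up much of the horizontal sum.

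At BPA 250, Dkk2 and Sfrp4 rose. Dkk2 (295445), which binds Lrp5 and Lrp6, had 41.9, 17.9, 25.2 and 25.2 CPM, against 15.7, 8.96, 10.6 and 9.47 CPM in control. The groups did not overlap, and library 1 was the highest. edgeR gave a log2 fold change of 1.30 (SE 0.31, adjusted p = 0.0150), and 1.04 (adjusted p = 0.0312) without the 4 libraries; it did not pass on leaving out control library 4 or BPA 250 library 1 (0.0543 and 0.0692). At EE2 0.5, Dkk2 had 16.5, 39.96, 21.8 and 27.1 CPM, a log2 fold change of 1.24 that did not pass (adjusted p = 0.0591).

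Sfrp4 (89803), a Frizzled-related protein of uterine stroma, had 198, 74.5, 158 and 69.6 CPM at BPA 250, against 35.5, 8.73, 31.3 and 11.4 CPM in control. All 4 BPA 250 libraries lay above all 4 control libraries, and both groups were spread widely. This came to a log2 fold change of 2.53 (SE 0.73, adjusted p = 0.0327), and 2.22 (adjusted p = 0.0260) without the 4 libraries. The call was lost on leaving out any of control libraries 2, 3, 4 and BPA 250 libraries 1, 3 (0.0533 to 0.0988). In the table of RefSeq genes, Sfrp4 overlaps Nme8, whose group means were 0.111 to 0.657 CPM. The log2 fold change of Nme8 at BPA 250 was -0.66 (adjusted p = 0.688 by edgeR). Summed stroma genes (12 counted) were 26869 to 30159 CPM at BPA 250, against 9992 to 29518 CPM in control, and 2 of them rose. Dcn alone averaged 11331 CPM at BPA 250, against 3798 CPM in control. The means of Col1a1, Col1a2, Hand2 and Thy1 were lower than in control, and those of the other listed stroma genes were higher. Of 16 smooth muscle genes 2 fell at BPA 250, with sums of 22945 to 30622 CPM, against 24340 to 45796 CPM in control. Over all genes, 4.44% were called higher and 4.35% lower at BPA 250. Of 15 tested genes of luminal and glandular epithelium none passed at BPA 250, at a median log2 fold change of -0.67 (edgeR). Their sums were 1103, 2846, 1309 and 1462 CPM in the 4 BPA 250 libraries, against 2792, 1241, 2476 and 2789 CPM in control, so that BPA 250 library 2 and control library 2 stood apart from the others of their groups. The part of stroma, muscle and epithelium in the BPA 250 values was not tested.

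Sfrp1, another Frizzled-related protein, was higher than control on average in every exposed group and passed in none. At EE2 0.05 it had 145, 133, 77.8 and 65.3 CPM, against 24.1, 17.4, 67.2 and 25.5 CPM in control, where library 3 stood apart (log2 fold change 1.65, adjusted p = 0.241). In BPA 25000 the 4 libraries had 99.9, 142, 12.3 and 146 CPM of Sfrp1 and 118, 99.1, 6.09 and 147 CPM of Sfrp4. Library 3, low in both, also had the lowest sum of stroma genes, 5766 CPM, against 21918 to 26382 CPM in the other 3 libraries of that group. Sfrp2 had 74.7, 82.4, 71.2 and 49.9 CPM at BPA 2500, against 106, 232, 88.8 and 148 CPM in control. That difference did not pass (log2 fold change -1.05, adjusted p = 0.357), nor did the -1.26 at BPA 25000 (adjusted p = 0.0824). Dkk3, a divergent member of the Dkk family, averaged 238 to 369 CPM over the 8 groups and passed in no comparison. The other 3 tested antagonists (Dkk1, Dkk4 and Wif1) had group means of 0.422 to 12.1 CPM and a lowest adjusted p of 0.0860.

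**Figure D4:**
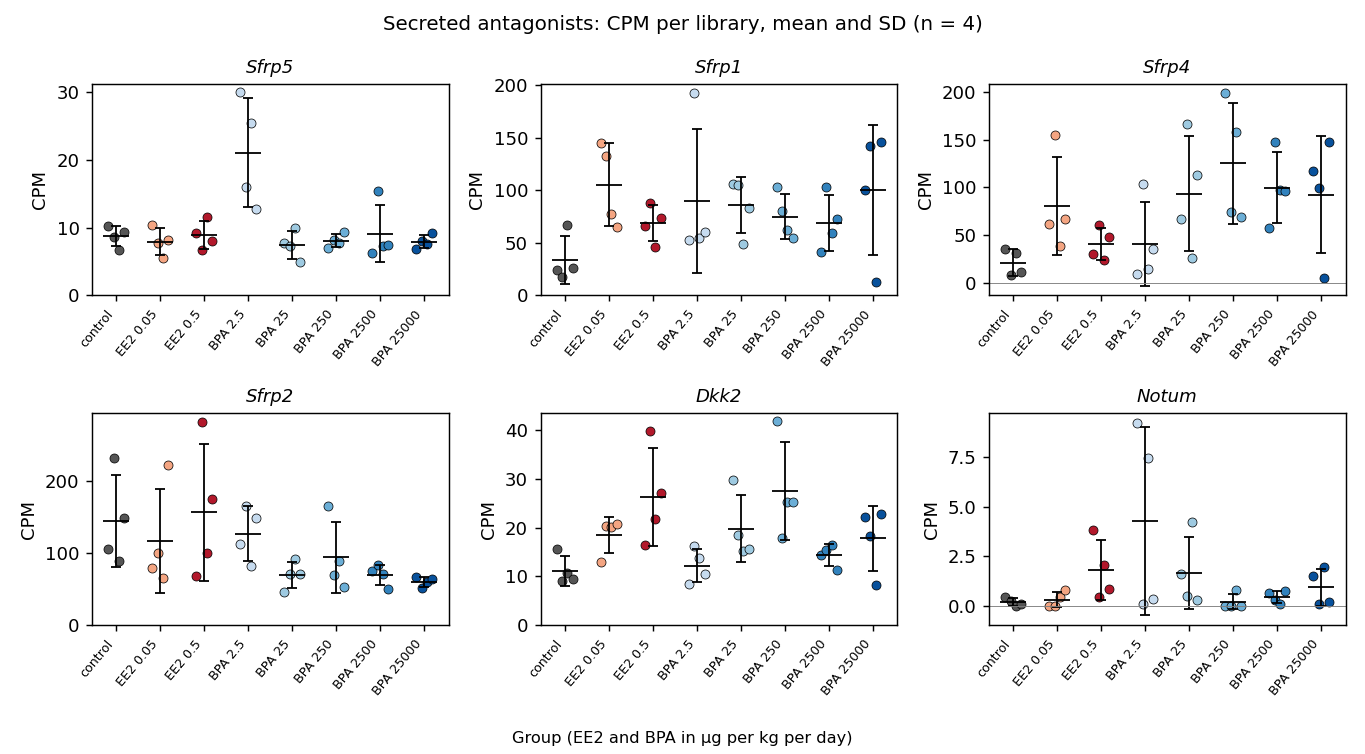
CPM of Sfrp5, Sfrp1, Sfrp4, Sfrp2, Dkk2 and Notum in each library (points) with the mean and SD of each group (4 libraries). Sfrp5 stands above 12 CPM in all 4 BPA 2.5 libraries, and Sfrp4 at BPA 250 lies above all control points.

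The inhibitors inside the cell include Naked proteins (Nkd1, Nkd2), which bind Dishevelled, and the scaffolds Axin1 and Axin2 of the destruction complex. Nkd1 and Axin2 are known as transcriptional targets of β-catenin, whereas Axin1 is not counted among them. To set the genes beside their promoters, the 250 bases before the start of Axin2 (chr10:94398535-94398784, plus strand), Nkd1 (chr19:34722847-34723096, minus strand) and Nkd2 (chr1:31272282-31272531, plus strand) are printed from RefSeq on build GRCr8, which differs from the rn5 build of the counts. Capitals mark matches to the TCF/LEF core CTTTGAT or CTTTGAA, searched on both strands.
Axin2: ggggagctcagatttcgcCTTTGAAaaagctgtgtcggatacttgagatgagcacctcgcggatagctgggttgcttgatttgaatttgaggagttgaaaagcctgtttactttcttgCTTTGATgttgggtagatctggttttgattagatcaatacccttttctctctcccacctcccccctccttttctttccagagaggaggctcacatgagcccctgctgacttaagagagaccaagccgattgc
Nkd1: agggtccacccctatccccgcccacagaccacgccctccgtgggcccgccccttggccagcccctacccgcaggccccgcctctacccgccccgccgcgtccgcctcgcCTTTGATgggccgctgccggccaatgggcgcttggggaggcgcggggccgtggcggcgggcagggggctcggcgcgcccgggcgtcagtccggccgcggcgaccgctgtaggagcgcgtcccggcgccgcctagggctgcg
Nkd2: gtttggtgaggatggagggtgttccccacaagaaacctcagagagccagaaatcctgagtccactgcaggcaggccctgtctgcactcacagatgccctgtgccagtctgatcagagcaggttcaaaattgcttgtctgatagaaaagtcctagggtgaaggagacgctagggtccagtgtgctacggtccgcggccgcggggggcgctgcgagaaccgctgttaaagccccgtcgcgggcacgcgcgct
Axin2 holds a match at -132 and a match at -232 from the start, Nkd1 holds a match at -141, and Nkd2 holds none in this window. Promoters of 36 of the 53 genes were in the table, and 5 of these (13.9%) had either core in the 300 bases around the start, against 8.64% of all 27457 promoters. The palindromic estrogen response element, GGTCA and TGACC with any 3 bases between them, occurred in 0 of the 36 and in 0.0255% of all promoters. An element this rare was unlikely to occur in any 36 promoters, so its absence says nothing about Wnt genes. A match is a description of the letters, not a binding site.

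Nkd2 (308068) rose at the highest BPA dose and at the higher EE2 dose. At BPA 25000 it had 39.0, 17.6, 48.7 and 22.8 CPM and at EE2 0.5 46.1, 16.97, 26.8 and 17.5 CPM, against 12.6, 6.00, 6.67 and 8.01 CPM in control. Neither exposed group overlapped control. Against control its log2 fold change was 1.95 (SE 0.40, adjusted p = 0.0155) at BPA 25000, and 1.68 (adjusted p = 0.0190) without the 4 libraries. At EE2 0.5 it was 1.69 (SE 0.40, adjusted p = 0.0472). In the other groups Nkd2 averaged 13.9 CPM (EE2 0.05), 17.5 (BPA 2.5), 12.1 (BPA 25), 8.58 (BPA 250) and 16.4 (BPA 2500), and none of these passed. The BPA 25000 call was lost on leaving out any of control libraries 2, 3, 4 and BPA 25000 library 2 (0.0513 to 0.0770), and the EE2 0.5 call without every library of the 2 groups but control library 1 (0.0576 to 0.220) and without the filter on low counts (0.0515). At EE2 0.5, and at EE2 0.05, 3 of 9 tested squamous epithelium genes rose. Over all genes, 0.263% were called higher at EE2 0.5, and 0.0451% were called in either direction at EE2 0.05. The summed squamous genes were 150, 400, 53.0 and 305 CPM in the EE2 0.5 libraries and 17.6, 7.25, 634 and 231 CPM in the EE2 0.05 libraries, against 5.55 to 23.7 CPM in control. Their part in the values of Nkd2, Dkk2, Notum and Lef1 at EE2 0.5 was not tested.

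Nkd1 (364952) fell at BPA 250, where Nkd2 averaged 8.58 CPM and did not pass. It had 8.85, 21.1, 16.8 and 12.99 CPM, against 29.7, 42.2, 21.9 and 28.8 CPM in control. The groups did not overlap, with BPA 250 library 2 just under control library 3. The log2 fold change was -1.03 (SE 0.30, adjusted p = 0.0353). At EE2 0.05 Nkd1 was as low, with 15.5, 12.7, 13.9 and 13.3 CPM and a log2 fold change of -1.14, which did not pass (adjusted p = 0.222). The call was lost on leaving out any of control libraries 1, 2, 4 and BPA 250 libraries 1, 3, 4 (0.0535 to 0.132) and without the 4 libraries (-0.84, adjusted p = 0.0709).

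Axin1 (79257) also fell at BPA 250. It had 22.3, 28.8, 38.5 and 23.8 CPM there, against 41.3, 38.3, 35.0 and 44.0 CPM in control. Library 3 lay within the control range and the other 3 BPA 250 libraries below it. Its log2 fold change against control was -0.49 (SE 0.14, adjusted p = 0.0327); it was lost on leaving out any of control libraries 1, 2, 4 and BPA 250 libraries 1, 4 (0.0632 to 0.136), without the 4 libraries (-0.38, adjusted p = 0.0932) and in a fit of the 2 groups alone (0.118). At BPA 25, Axin1 had 30.8, 31.2, 28.6 and 28.7 CPM, all below control, and a log2 fold change of -0.41 (adjusted p = 0.0851).

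Axin2, widely used as a readout of β-catenin signalling, passed in no comparison. Its group means ran between 17.7 CPM at BPA 250 (15.5, 19.96, 17.6 and 17.7 CPM) and 28.4 CPM at BPA 2.5, and control had 25.1, 26.1, 20.7 and 23.5 CPM. All BPA 250 libraries lay below all control libraries, at a log2 fold change of -0.43 (adjusted p = 0.192). Rnf43, a ubiquitin ligase that removes Frizzled from the membrane, had group means of 8.35 to 17.3 CPM and a lowest adjusted p of 0.369.

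**Figure D5:**
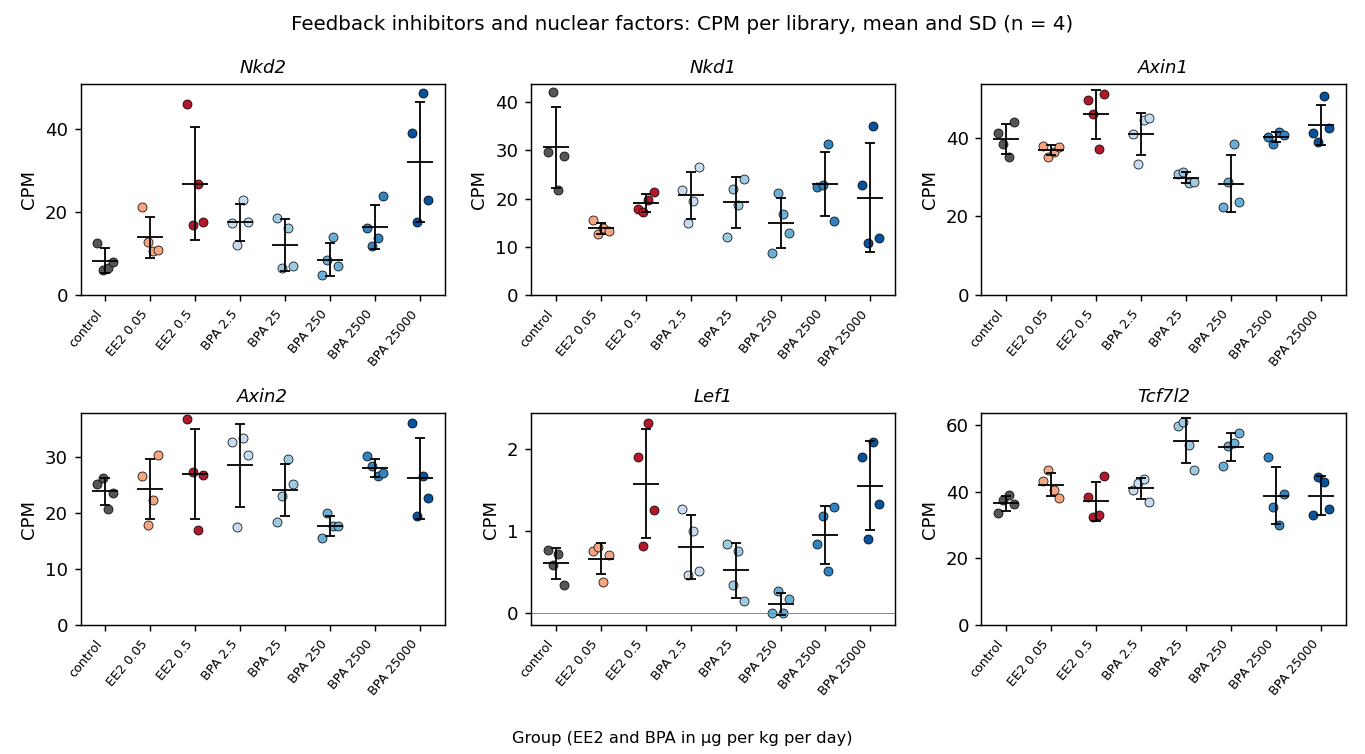
CPM of Nkd2, Nkd1, Axin1, Axin2, Lef1 and Tcf7l2 in each library (points) with the mean and SD of each group (4 libraries). Nkd2 is highest at EE2 0.5 and BPA 25000, Tcf7l2 lies above all control points at BPA 25 and BPA 250, and Lef1 has 2 libraries at 0 CPM at BPA 250.

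Of the nuclear factors that bind DNA with β-catenin, Tcf7l2 rose and Lef1 fell. Tcf7l2 (679869) had 59.7, 61.0, 54.0 and 46.4 CPM at BPA 25 and 47.5, 53.7, 54.5 and 57.6 CPM at BPA 250, against 33.6, 37.4, 38.8 and 36.1 CPM in control. Both groups lay wholly above control. In the edgeR fit the log2 fold change was 0.60 (SE 0.14, adjusted p = 0.0393) at BPA 25 and 0.55 (SE 0.14, adjusted p = 0.0210) at BPA 250; without the 4 libraries it was 0.61 at either dose (adjusted p = 0.0168 and 0.0260). Group means in the other exposed groups were 37.1 to 42.1 CPM. The BPA 25 call was lost without any control library or without BPA 25 library 1, 2 or 3 (0.0601 to 0.164), and the BPA 250 call on leaving out any of control libraries 1, 4 and BPA 250 library 4 (0.0517 to 0.0600).

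Lef1 (161452) was counted near the floor. It had 0, 0.272, 0 and 0.173 CPM at BPA 250 (9 counts in all), against 0.776, 0.592, 0.725 and 0.348 CPM in control (32 counts). The groups did not overlap. The fitted log2 difference from control was -2.25 (SE 0.70, adjusted p = 0.0431). Lef1 was higher at EE2 0.5, with 1.91, 0.823, 2.32 and 1.26 CPM, and at BPA 25000, with 1.91, 0.902, 2.08 and 1.33 CPM, and passed in neither (adjusted p = 0.274 and 0.219). The BPA 250 call was lost without any control library or without BPA 250 library 1, 3 or 4 (0.0654 to 0.122), without the 4 libraries (-1.82, adjusted p = 0.0930) and without the filter (0.0530). Tcf7l1, mostly a repressor in this family, averaged 20.9 to 33.9 CPM and passed in no comparison.

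Among the 5 BPA doses, 13 of 44 Wnt genes differed by the F test (29.5%, against 31.7% of all genes), and over all 8 groups 15 did (34.1%, against 31.7%). Over the 8 groups these were Sfrp5 (adjusted p = 0.000883), Nkd2 (0.00165), Axin1 (0.00253), Tcf7l2 (0.00382), Lef1 (0.00534), Lrp5 (0.0062), Fzd4 (0.00783), Dkk2 (0.00808), Lgr4 (0.0128), Wnt5b (0.0215), Fzd6 (0.0278), Sfrp2 (0.0311), Notum (0.0364), Fzd10 (0.0442) and Fzd8 (0.0483). The share of Wnt genes that differed was near the background. Axin1, Lef1, Lrp5, Tcf7l2, Nkd2, Fzd4, Lgr4 and Sfrp5 passed both F tests without any 1 library, and Axin1, Lef1, Tcf7l2 and Lrp5 still passed both without the 4 libraries. Sfrp5 did not (adjusted p = 0.291 over 8 groups).

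The order of doses differed between these genes. Axin1 and Lrp5 were low and Tcf7l2 was high at BPA 25 and BPA 250, with values near control at BPA 2.5, 2500 and 25000. Nkd2 and Lef1 were highest at BPA 25000. Sfrp5, Wnt5b and Fzd10 were highest at BPA 2.5. In the linear trend over log10 dose, 4 of 44 genes (9.09%) passed, all downward, against 4.62% of all genes (3.42% lower). Per 10-fold higher dose the log2 slope was -0.22 for Lgr4 (SE 0.05, adjusted p = 0.0277), -0.25 for Sfrp5 (SE 0.06, 0.0283), -0.23 for Wnt5b (SE 0.06, 0.0287) and -0.49 for Fzd10 (SE 0.14, 0.0409). Without the 4 libraries all 4 slopes remained negative and none passed (-0.11, -0.14, -0.18 and -0.14 in that order, adjusted p between 0.205 and 0.658), and in a fit of the BPA groups alone the adjusted p was 0.121 to 0.142.

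Leaving out BPA 2.5 library 1 ended each of these 4 trend calls. The Lgr4 call was also lost without BPA 25000 library 3 (0.0502 to 0.117), that of Sfrp5 without BPA 25000 library 1 or 2 (0.0583 to 0.112), that of Wnt5b without BPA 25000 library 1, 2 or 4 (0.0514 to 0.107), and that of Fzd10 in 11 of 16 fits (0.0512 to 0.195). Of the F tests over 8 groups, Fzd8 was lost in 26 of 32 such fits (0.0524 to 0.115), Fzd10 in 20 (0.0511 to 0.199), Notum in 9 (0.0501 to 0.127), Sfrp2 without EE2 0.5 library 2 or 4 or BPA 25000 library 2 (0.0502 to 0.0571), Fzd6 without BPA 250 library 1 or 2 (0.0569 and 0.0695), and Wnt5b without BPA 2.5 library 1 or 3 (0.0504 and 0.0513).

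Other genes of the pathway were read from 6 lists covering ligand secretion, coreceptors and planar polarity, further antagonists, signal transduction, nuclear partners of β-catenin, and target genes. Of 77 listed genes 64 were tested. At BPA 250, 10 of them passed (15.6%, against 8.79% of all genes; 4 higher, 6 lower), among them 1 of 2 secretion genes, 1 of 13 coreceptor and polarity genes, 1 of 3 antagonists, 3 of 17 transduction genes, 2 of 12 nuclear partners and 2 of 17 targets. At BPA 2.5, 4 passed (6.25%, against 11.4% of all genes; all higher), at BPA 25 2 (3.12%, against 1.92%), at BPA 25000 1 (1.56%, against 2.32%), and at EE2 0.05, EE2 0.5 and BPA 2500 0. Over the 8 groups, 17 of 64 differed (26.6%, against 31.7%). The shares at BPA 2.5, at BPA 25000 and over the 8 groups lay below those of all genes.

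Cd44, a cell surface receptor and β-catenin target, and Smarca4, the Brg1 remodelling ATPase that works with β-catenin, are described first because their p-values at BPA 250 were the smallest of these lists. Cd44 had 162, 124, 116 and 281 CPM at BPA 250 and 216, 108, 107 and 88.1 CPM at BPA 25, against 69.9, 45.7, 63.8 and 59.6 CPM in control. Smarca4 had 80.4, 127, 77.7 and 94.8 CPM at BPA 250 and 81.9, 109.7, 110.7 and 124 CPM at BPA 25, against 207, 164, 189 and 207 CPM in control. In neither gene did these BPA groups overlap control.

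The log2 fold change of Cd44 was 1.51 at BPA 250 (SE 0.28, adjusted p = 0.00527) and 1.12 at BPA 25 (SE 0.28, 0.0394), and that of Smarca4 was -1.01 (SE 0.20, 0.00641) and -0.85 (SE 0.20, 0.0393). The BPA 250 calls of both genes passed without any 1 library and without the 4 libraries. Both BPA 25 calls were lost without any control library or BPA 25 library 1, 2 or 3 (0.0553 to 0.182). Fbxw11, the β-TrCP2 subunit that marks β-catenin for degradation, rose at BPA 250 (0.49, SE 0.14, adjusted p = 0.0314). That call was lost without any control library and without BPA 250 library 1 or 4 (0.0542 to 0.116). It was also lost without the 4 libraries and in a fit of the 2 groups alone (up to 0.0934). Of the other listed genes called at BPA 250, Wls (1.14, adjusted p = 0.0224 by edgeR) and the antagonist Frzb (1.63, 0.0271) rose. The transduction genes Gsk3a (-0.74, 0.0147) and Csnk1d (-0.41, 0.0265), the target Ephb3 (-1.26, 0.0330), Ptk7 (-0.59, 0.0422) and Tle5 (-0.68, 0.0467) fell. How these calls depend on single libraries is not given here.

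The corepressor Ctbp2 rose at BPA 2.5 (0.47, SE 0.12, adjusted p = 0.0145), a call lost on leaving out control library 3 or BPA 2.5 library 1 (0.0546 and 0.0761), in a fit of the 2 groups alone and without the 4 libraries (up to 0.149). Ctbp2 also fell with BPA dose (-0.14 per 10-fold, SE 0.03, adjusted p = 0.0108), which held without any 1 library and was lost in a fit of the BPA groups alone (0.103). Bcl9l, a coactivator that bridges β-catenin to its partners, averaged 34.5 CPM at BPA 250 and 62.3 CPM at BPA 2.5, with 46.2 CPM in control, and differed over the 8 groups (adjusted p = 0.000962). Tle3, a Groucho corepressor, averaged 91.1 CPM at EE2 0.5 and 48.0 CPM at BPA 250, with 59.8 CPM in control, and differed too (0.000689). Against control neither gene passed in these groups by edgeR. The adjusted p of Bcl9l was 0.0676 at BPA 2.5 and 0.0809 at BPA 250. That of Tle3 was 0.0540 at EE2 0.5 and 0.165 at BPA 250.

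Within groups, some Wnt genes varied together from library to library. Over all 946 pairs of the 44 tested genes, using deviations from the group means of log2 CPM in 32 libraries, 18 pairs had an adjusted permutation p under 0.05 for Pearson's r, 15 positive and 3 negative. The share among pairs of other genes was not computed, so this count cannot be called particular to Wnt genes. The pair with the highest r was Sfrp1 and Sfrp4, the 2 antagonists low in BPA 25000 library 3 (r = 0.85, permutation p = 2e-05, adjusted 0.00631; rho = 0.80, p = 5e-05, adjusted 0.017). Without the 2 libraries farthest from the median of Sfrp1, r was 0.74, and without the 4 libraries 0.69. Fzd1 followed Sfrp4 as well (r = 0.79, permutation p = 9e-05, adjusted 0.017; rho = 0.74, p = 0.00019, adjusted 0.0284), with r = 0.74 and 0.56 under the same omissions. These libraries also differ in the summed genes of stroma, whose part in the correlation was not tested.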

How the data were processed

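For 32 libraries of rat uterus the authors deposited raw counts, whole numbers of reads assigned to each gene. Per the submitters' processing notes, bcl2fastq, TopHat and edgeR were used with build rn5. Tool versions, gene annotation and strand handling: not given in the sources used here. Symbols of gene IDs came from a RefSeq table of assembly GRCr8, used for names, neighbours and promoters only; 17167 of 17327 matched, and the 160 others held 1.82% of counts. No libraries were identical, and the chi-square per gene between libraries of a group was 13.0 to 181.

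Groups came from the labels. In R 4.3.3 with edgeR 4.0.16 and limma 3.58.1, genes were kept by filterByExpr (minimum count 10, minimum total 15), leaving 13312 to be normalised by the TMM method. A quasi-likelihood model with 1 mean per group over all 8 groups gave 13 comparisons; p-values were adjusted over all tested genes by the Benjamini-Hochberg method (threshold 0.05). SEs are the log2 fold change over the root of F, and log2 fold changes carry edgeR's prior count. Alternatives were DESeq2's size factors, no filter, DESeq2 1.42.0, only the groups compared, and each library left out. The steps were tested on simulated counts.

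The members and lists were chosen with earlier results of these data known. Named are members past the threshold in any comparison, the 12 with the largest F over 8 groups, the 3 with the smallest p where a comparison with control had fewer than 3, and the 2 of highest mean CPM in each role; of the pathway lists, the 6 genes with the smallest p. Floors cover counting error only.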

Additional observations from a re-analysis of the deposited data

Results flagged for a closer look

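Within groups of 4 libraries, the highest or lowest library of a named gene stood apart from the other 3 by the gap test in 10 of 208 gene and group combinations; chance flags about 1 in 20. Dkk2 had 12.95 CPM in EE2 0.05 library 1, with 20.1 to 20.7 CPM in the others. Dkk3 had 398 CPM in BPA 2.5 library 2 (others 251 to 268) and 482 CPM in BPA 25 library 1 (others 224 to 264). Fzd8 had 14.2 CPM in BPA 250 library 2 (others 26.1 to 26.4). Lrp6 had 112 CPM in EE2 0.05 library 1 (others 135 to 139). Notum had 0.802 CPM in BPA 250 library 3 and 0 in the others. Sfrp1 had 192 CPM in BPA 2.5 library 2 (others 52.2 to 60.4) and 67.2 CPM in control library 3 (others 17.4 to 25.5). Sfrp5 had 15.4 CPM in BPA 2500 library 2 (others 6.29 to 7.39). Wnt5b had 19.96 CPM in BPA 250 library 3 (others 22.7 to 22.8), a gap that is wide only beside the narrow range of that group.

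The effect of BPA differed between the 5 doses for 13 genes in edgeR's F test. The adjusted p was 0.000325 for Sfrp5, 0.00211 for Lrp5, 0.00211 for Axin1, 0.00332 for Lef1, 0.00443 for Nkd2, 0.00512 for Tcf7l2, 0.0082 for Fzd4, 0.0233 for Fzd10, 0.0269 for Dkk2, 0.0273 for Lgr4, 0.0291 for Wnt5b, 0.0327 for Fzd8 and 0.0408 for Fzd6. Of all tested genes, 31.7% passed the same test. With 1 library left out, the call was lost for Fzd6 in 9 of 20 fits (adjusted p between 0.0509 and 0.115), for Fzd8 without BPA 25 library 1, 2 or 4 or BPA 25000 library 2 or 4 (0.0528 to 0.112), for Dkk2 without BPA 2.5 library 1 or 4 or BPA 250 library 1 (0.0509 to 0.108), for Wnt5b without BPA 2.5 library 1 or 3 or BPA 2500 library 3 (0.0633 to 0.0794) and for Fzd10 without BPA 2.5 library 1 or 3 (0.0821 and 0.250). In a fit of the BPA groups alone Lgr4, Fzd10, Fzd6, Fzd8 and Dkk2 did not pass. Without the 4 libraries of lowest correlation Axin1, Lef1, Tcf7l2, Lrp5 and Fzd8 passed and the other 8 did not.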

How the results depend on the processing

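No call of a Wnt gene changed its direction. Of 205 values of called members under other settings, 159 kept their call and 46 did not; of 948 with 1 library left out, 758 kept it and 190 did not. The counts of called Wnt genes moved by over 1.5 times as follows. With DESeq2's test they were 2 at EE2 0.5, 8 at BPA 2.5, 3 at BPA 25, 5 at BPA 25000, 3 for the EE2 mean and 4 for the BPA mean. With only the groups compared they were 1 at EE2 0.05, 2 at EE2 0.5, 0 at BPA 2.5, 2 at BPA 25, 5 for the EE2 mean, 0 for the trend and 8 among BPA doses. Without the 4 libraries of lowest correlation, an alternative chosen after seeing the data, they were 2 at EE2 0.5, 2 at BPA 2.5, 7 at BPA 25, 4 at BPA 250, 7 at BPA 25000, 1 for the EE2 mean, 4 for the BPA mean, 0 for the trend and 5 among BPA doses. Without a filter the count was 0 at EE2 0.5, and with DESeq2's size factors it was 1 for the BPA mean. By the same measure, the counts over all genes moved in 35 cases under these settings and stayed in 29. The Wnt counts moved in 24 and stayed in 40. The share of all genes called in each setting is not given here, so these shifts cannot be called particular to Wnt genes. Their cause was not tested.

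With 1 library left out, the count ran from 0 to 0 at EE2 0.05 and BPA 2500, for the EE2 mean and between the EE2 doses, 0 to 2 at EE2 0.5 and BPA 25, 1 to 6 at BPA 2.5, 0 to 11 at BPA 250, 0 to 4 at BPA 25000, 0 to 5 for the BPA mean and the trend, 10 to 17 among BPA doses and 11 to 18 over 8 groups. The count of 0 at BPA 250 came without control library 4. Over all genes, the count at BPA 250 was 1170, and 179 without BPA 250 library 1; at BPA 2.5 it was 1524, and 57 with only the groups compared. No paired analysis was possible because the labels give no replicate numbers that groups share. Depth limits Lef1 and Notum, with 9 counts over a whole group.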
